A study of Danio rerio with 4 samples.

Results

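The expression of myb and ikzf1, 2 of the 36351 genes in the count matrices, was followed in single cells sorted from the trunk and tail of zebrafish embryos at 26 h post fertilisation (hpf). Both genes were selected by name, through their symbols, which each belonged to 1 gene identifier (myb LL0000019794, ikzf1 LL0000012632). Their levels, the shares of cells that held them and their co-detection with cdh5, gata1a and spi1b were compared between 4 libraries, 1 for each of 4 groups. All embryos carried the Tg(kdrl:GFP)zn1 transgene, in which the kdrl promoter drives GFP in endothelial cells (EC) and in the blood cells that have just left them, and GFP-positive cells were sorted in a single experiment from many embryos pooled within each group. The groups were WT, a mutant called miR-128 mutant that lacks both genomic copies of miR-128 (miR-128-1 and miR-128-2), csnk1a1 g3UTR and jag1b g3UTR. In the g3UTR groups, Cas9 mRNA and guide RNAs were injected into embryos to edit the site that miR-128 binds in the 3′UTR of csnk1a1, a Wnt pathway kinase gene, or of jag1b, a Notch ligand gene. Whether the sorted g3UTR embryos were the injected animals, which can be mosaic, or their offspring is not given in the sources used here. Mature miR-128 is not measured by these libraries and an edit inside a 3′UTR is not read in gene counts, so the counts do not check the labels directly. The study reported by qRT-PCR that the edits raised the csnk1a1 and jag1b transcripts, whose levels were not examined here.

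Blood stem and progenitor cells of the embryo arise from haemogenic endothelium in the floor of the dorsal aorta by an endothelial-to-haematopoietic transition, in which a cell loses endothelial adhesion and becomes a nascent haematopoietic stem and progenitor cell (nHSPC). The gene myb, called cmyb in older zebrafish work, encodes a DNA-binding activator that definitive blood progenitors need and that is switched off as blood cells mature. The gene ikzf1 encodes Ikaros, a zinc-finger factor that works with the NuRD chromatin remodelling complex and is best known as a regulator of lymphoid development. The genes set beside them mark neighbouring states, since cdh5 encodes the endothelial adhesion protein VE-cadherin, gata1a an erythroid regulator and spi1b the myeloid factor Pu.1.

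Levels are given as CPM, the summed unique molecular identifiers (UMIs) of a gene as counts-per-million of all UMIs of the same cells, with 95% Poisson intervals. Shares of cells with a UMI have 95% Clopper-Pearson intervals and were read after each cell was thinned at random to 2500 UMIs, because the libraries differed in depth. The matrices held 12918, 9788, 9380 and 11482 barcodes and 69980329 to 144258953 UMIs, and 12234, 9265, 9126 and 11236 cells were kept, with a median of 10506, 9606, 7692 and 5680 UMIs. Wherever 4 values follow each other without names, they belong to WT, the miR-128 mutant, the csnk1a1 and the jag1b g3UTR library in this order. Pairs of libraries shared 25 to 52 cell barcodes, 0.274 to 0.463% of the smaller library. With 1 library per group no difference between groups has a replicate check, so no test was run, and all intervals cover counting error only. The WT and mutant matrices came from 1 Cell Ranger version and both g3UTR matrices from another, so a difference between a g3UTR library and WT cannot be told apart from one between the pairs, and the g3UTR libraries are therefore also compared with each other. A ratio of at least 1.5 was counted as higher.

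Both genes were at a higher level in each of the 3 other libraries than in WT, and highest in csnk1a1 g3UTR. The level of myb over all kept cells was 34.5 CPM (33.5 to 35.5) in the WT library, 42.8 (41.5 to 44.1) in the mutant, 40.1 (38.6 to 41.6) in jag1b g3UTR and 53.2 (51.6 to 54.9) in csnk1a1 g3UTR, from 4754, 4167, 2774 and 4184 UMIs in that order. The level of ikzf1 was 9.31 CPM (8.81 to 9.83) in the WT library, 12.7 (12 to 13.4) in the mutant, 12.2 (11.4 to 13.1) in jag1b g3UTR and 17.8 (16.9 to 18.7) in csnk1a1 g3UTR, from 1282, 1233, 846 and 1397 UMIs in that order. No interval of csnk1a1 g3UTR overlapped that of another library for either gene, whereas the intervals of the miR-128 mutant and jag1b g3UTR overlapped for both. For myb the CPM ratio to WT was 1.24 (95% interval 1.19 to 1.29) in the miR-128 mutant, 1.54 (95% interval 1.48 to 1.61) in csnk1a1 g3UTR and 1.16 (95% interval 1.11 to 1.22) in jag1b g3UTR. For ikzf1 it was 1.36 (95% interval 1.26 to 1.47), 1.91 (95% interval 1.77 to 2.06) and 1.31 (95% interval 1.2 to 1.43). Both genes passed a ratio of 1.5 in csnk1a1 g3UTR, as did 23.3% of the genes tested, and neither passed it in the mutant, where 9.6% of genes did, or in jag1b g3UTR, where 39.3% did. With cells over 20000 UMIs left out, however, ikzf1 passed it in the mutant (1.52) and both genes in jag1b g3UTR (1.77 for myb and 1.69 for ikzf1). Between the g3UTR libraries, the ratio of csnk1a1 to jag1b g3UTR was 1.33 (95% interval 1.27 to 1.39) for myb and 1.45 (95% interval 1.33 to 1.59) for ikzf1, both under 1.5, a ratio that 5.77% of genes passed. The CPM of the median gene stood above WT by 0.225 on the log2 scale in csnk1a1 g3UTR and by 0.432 in jag1b g3UTR. Scaled to the median gene, the myb ratio of csnk1a1 g3UTR to WT was 1.32, below 1.5, and the jag1b g3UTR ratios to WT turned to 0.86 for myb and 0.973 for ikzf1.

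Few cells held either transcript. At 2500 UMIs a cell, the share of cells with a myb UMI was 3.88% (3.54 to 4.25) in the WT library, 4.7% (4.27 to 5.16) in the mutant, 5.36% (4.91 to 5.84) in jag1b g3UTR and 6.62% (6.1 to 7.17) in csnk1a1 g3UTR. The share with an ikzf1 UMI was 1.55% (1.33 to 1.79) in the WT library, 2.13% (1.84 to 2.46) in the mutant, 2.2% (1.91 to 2.52) in jag1b g3UTR and 2.75% (2.41 to 3.13) in csnk1a1 g3UTR. The shares in csnk1a1 g3UTR were the highest for both genes, and the WT shares the lowest. Before thinning, which left out 745, 315, 772 and 2039 shallower cells, the shares were 7.56, 8.56, 11.3 and 7.97% for myb and 4.66, 5.67, 7.74 and 4.66% for ikzf1, so that jag1b g3UTR, the shallowest library, was then nearest to WT. A cell positive for myb held a median of 4, 4, 3 and 2 myb UMIs, whereas 51.2 to 63.2% of ikzf1-positive cells held a single ikzf1 UMI. Many cells that transcribe ikzf1 can therefore be counted as negative at this depth. The genes read beside them also differed between libraries. The level of cdh5 was 776, 769, 1051 and 1730 CPM, that of gata1a 2.29, 3.21, 7.44 and 10.1 CPM and that of spi1b 54.4, 47.8, 102 and 90.1 CPM, with cdh5 and gata1a highest in jag1b g3UTR and spi1b highest in csnk1a1 g3UTR.

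**Figure D1:**
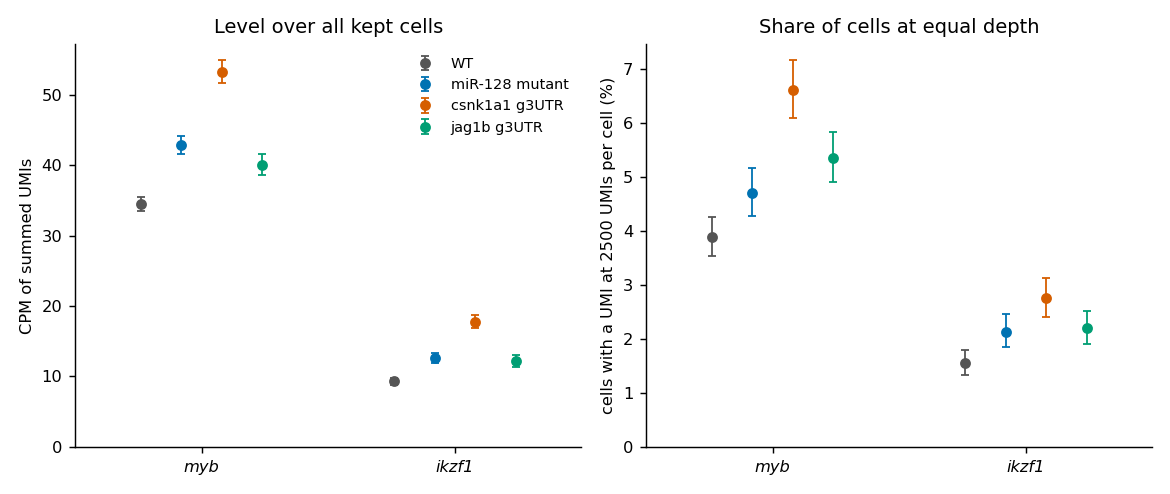
Level of myb and of ikzf1 in each library over all kept cells, as CPM, and the share of cells with a UMI at 2500 UMIs a cell, as %, with 95% counting intervals as bars. For both genes and both measures the csnk1a1 g3UTR point is the highest and the WT point the lowest.

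At the coarser clustering most myb UMIs lay in a single class of blood progenitors, and so did most ikzf1 UMIs except in jag1b g3UTR. Cells were clustered without myb, ikzf1, cdh5, gata1a, spi1b, their paralogs and cell cycle genes, and a cluster was named where at least 3 markers of a type were raised 2-fold. The nHSPC-like class (586, 563, 651 and 578 cells, 4.79, 6.08, 7.13 and 5.14% of the kept cells) raised 7 of 12 nHSPC markers and 6 of 8 markers of haemogenic endothelium, with the neutrophil marker cebpa and the thrombocyte marker gp1bb also raised and no erythroid, macrophage or lymphoid marker. It contained 76.9, 82.2, 72.9 and 71.6% of all myb UMIs and 70.3, 73.1, 60.1 and 49.8% of all ikzf1 UMIs. Of its defining markers, the integrin gene itga2b, known from progenitors and thrombocytes, was at 0.204, 0, 0 and 0 CPM. The marker lmo2, on both lists, stood at 304, 320, 298 and 296 CPM, below its 417, 421, 383 and 353 CPM over all kept cells. The marker wasb, at 16.8, 19, 20.3 and 16.9 CPM, stood beside 10, 11.5, 18.1 and 17 CPM over all kept cells. The label rests on others such as csf1rb, coro1a and spi2. The pan-leukocyte phosphatase gene ptprc stood at 26.6, 25.7, 28.9 and 44.3 CPM and the haemogenic regulator runx1 at 15.8, 16.1, 32.7 and 42.2 CPM.

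Within the nHSPC-like class the libraries lay closer together in both genes than over all kept cells. This held less in the finer clustering given below, with its runx1-led cluster and its nHSPC-like clusters. In each of these, ikzf1 in csnk1a1 g3UTR and myb in jag1b g3UTR stood further above WT than in this class. In some of them so did myb in csnk1a1 g3UTR and ikzf1 in jag1b g3UTR. The level of myb was 372 CPM (360.1 to 384) in the WT library, 388 (375 to 401) in the mutant, 426 (407 to 445) in jag1b g3UTR and 397 (383 to 412) in csnk1a1 g3UTR. That of ikzf1 was 91.7 CPM (85.8 to 97.9) in the WT library, 102 (95.5 to 109) in the mutant, 90.2 (81.8 to 99.2) in jag1b g3UTR and 109 (102 to 117) in csnk1a1 g3UTR. Thinned shares were 57.1 (52.9 to 61.2), 57.4 (53.2 to 61.6), 62.3 (58.4 to 66.1) and 63.5 (59.2 to 67.7)% for myb and 22.2 (18.8 to 25.8), 23.1 (19.6 to 26.8), 22.5 (19.3 to 26) and 20.6 (17.2 to 24.3)% for ikzf1, with overlapping intervals in all 4 libraries. The ratio of myb to WT was 1.04 (95% interval 0.995 to 1.09) in the mutant, 1.07 (95% interval 1.02 to 1.12) in csnk1a1 g3UTR and 1.14 (95% interval 1.08 to 1.21) in jag1b g3UTR. For ikzf1 the corresponding ratios were 1.11 (95% interval 1.01 to 1.22), 1.19 (95% interval 1.08 to 1.31) and 0.984 (95% interval 0.874 to 1.11), and csnk1a1 over jag1b g3UTR gave 1.21 (95% interval 1.08 to 1.37). Neither gene reached 1.5 in a comparison of these cells, a ratio passed by 7.54% of genes in the mutant, 13.8% in csnk1a1 g3UTR, 28.2% in jag1b g3UTR and 6.06% in csnk1a1 over jag1b g3UTR. The CPM of the median gene of these cells stood above WT by 0.258 on the log2 scale in jag1b g3UTR, and scaled to it the myb ratio of that library turned to 0.957. The share of nHSPC-like cells among the kept cells was lowest in WT and highest in csnk1a1 g3UTR, the same order as the levels over all cells at both ends, and it also moves with how many other cells the sort took.

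Genes of the progenitor pathway were counted in the same cells. Of 14 progenitor genes, 0 were higher than in WT in the mutant, 5 in jag1b g3UTR and 2 in csnk1a1 g3UTR, with the shares of all genes given above. Too few UMIs for a call were held by 4 of the 14 in the mutant, 4 in jag1b g3UTR and 3 in csnk1a1 g3UTR. Lower than in WT were 0, 1 and 0, against 7.94%, 8.55% and 7.21% of all genes. Among the higher genes in both g3UTR libraries was runx1, with a ratio to WT of 2.07 in csnk1a1 and 2.68 in jag1b g3UTR, as was mpl, the thrombopoietin receptor gene, on few UMIs. In jag1b g3UTR the receptor genes csf1rb (1.7) and csf3r (2.71) and ptprc (1.67) were also higher, while gata2b, a haemogenic endothelium regulator, was lower (0.578). The median ratio of the tested progenitor genes was 1.01, 1.22 and 1.54 in the mutant, csnk1a1 and jag1b g3UTR, beside 0.988, 1.06 and 1.15 for all genes. Of the 14 lymphoid genes, 6 had too few UMIs in each comparison with WT. Among the rest, 3 were higher in csnk1a1 g3UTR and 4 in jag1b g3UTR, against 13.8% and 28.2% of all genes. Higher in both were gata3 (1.73 and 2.03) and bcl11aa (1.66 and 1.6). In the mutant none of the lymphoid, NuRD or Myb partner genes with enough UMIs passed 1.5 in either direction. Of all genes, 7.54% were higher and 7.94% lower there.

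The class next in the endothelial direction differed more between libraries. The class of arterial and haemogenic endothelium (886, 854, 581 and 568 cells) raised 5 of 8 arterial and 5 of 8 haemogenic markers. Its myb level was 26.8 CPM (23.5 to 30.5) in the WT library, 25.3 (21.8 to 29.2) in the mutant, 19.9 (15.2 to 25.7) in jag1b g3UTR and 48.3 (41.7 to 55.6) in csnk1a1 g3UTR. Its ikzf1 level was 11.1 CPM (8.99 to 13.6) in the WT library, 12.2 (9.84 to 15) in the mutant, 14.3 (10.3 to 19.2) in jag1b g3UTR and 28.1 (23.1 to 33.8) in csnk1a1 g3UTR. The csnk1a1 g3UTR intervals lay above those of the other 3 libraries for both genes. The ratio of csnk1a1 g3UTR to WT was 1.8 (95% interval 1.48 to 2.19) for myb and 2.53 (95% interval 1.91 to 3.36) for ikzf1, and 21.7% of the genes tested in this class passed 1.5. Against jag1b g3UTR the ratios were 2.42 (95% interval 1.8 to 3.29) and 1.96 (95% interval 1.37 to 2.86), with 10.2% of genes past 1.5. Venous, tip and other endothelial classes had at most 2.25 CPM of either gene in any library, the remaining arterial class included.

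In neutrophil- and erythroid-like cells the libraries stood in a different order for each gene. Neutrophil-like cells had 122, 129, 121 and 102 CPM of myb and 29.2, 31.8, 41.8 and 45.5 CPM of ikzf1. Erythroid-like cells had 101, 97.2, 74 and 62.2 CPM of myb and 26.9, 40.1, 37.8 and 44.3 CPM of ikzf1. The jag1b g3UTR library had a ratio to WT of 1.56 (95% interval 1.23 to 1.98) for ikzf1 and 0.831 (95% interval 0.726 to 0.951) for myb in neutrophil-like cells, and 1.65 (95% interval 1.19 to 2.3) and 0.617 (95% interval 0.505 to 0.753) in erythroid-like cells. A ratio of 1.5 was passed by 35.3% and 28.4% of genes in these classes, and a ratio as far below 1 by 8.29% and 10.8%. Macrophage-like cells had 3.58, 3.76, 2.91 and 14.6 CPM of myb and 32.2, 36.6, 25.3 and 14.6 CPM of ikzf1. These were only 25, 50, 65 and 60 cells, and none held a myb UMI after thinning, which allows a share of up to 12, 6.12, 5.08 and 5.77%. Mesenchyme-, muscle-, neural- and notochord-like cells were taken as the background, without a check that they lack both genes. In them 0.16, 0, 0.386 and 1.11% of thinned cells held a myb UMI and 0, 0, 0 and 0.158% an ikzf1 UMI, where 0 cells allow a share of up to 0.474 to 0.611%, at median depths of 10724, 10449, 8283 and 5526 UMIs before thinning, beside 16921, 15540, 11319 and 7974 UMIs in the nHSPC-like class. The background of myb was highest in jag1b g3UTR, at 7.26 CPM, against 1.11 CPM in WT. In jag1b g3UTR it thus stood above the myb level of the venous, tip, other and remaining arterial endothelial classes, so it is no common floor for the libraries. Neural-like cells held 8 of 9, 0 of 2, 5 of 12 and 11 of 40 of the background myb UMIs.

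**Figure D2:**
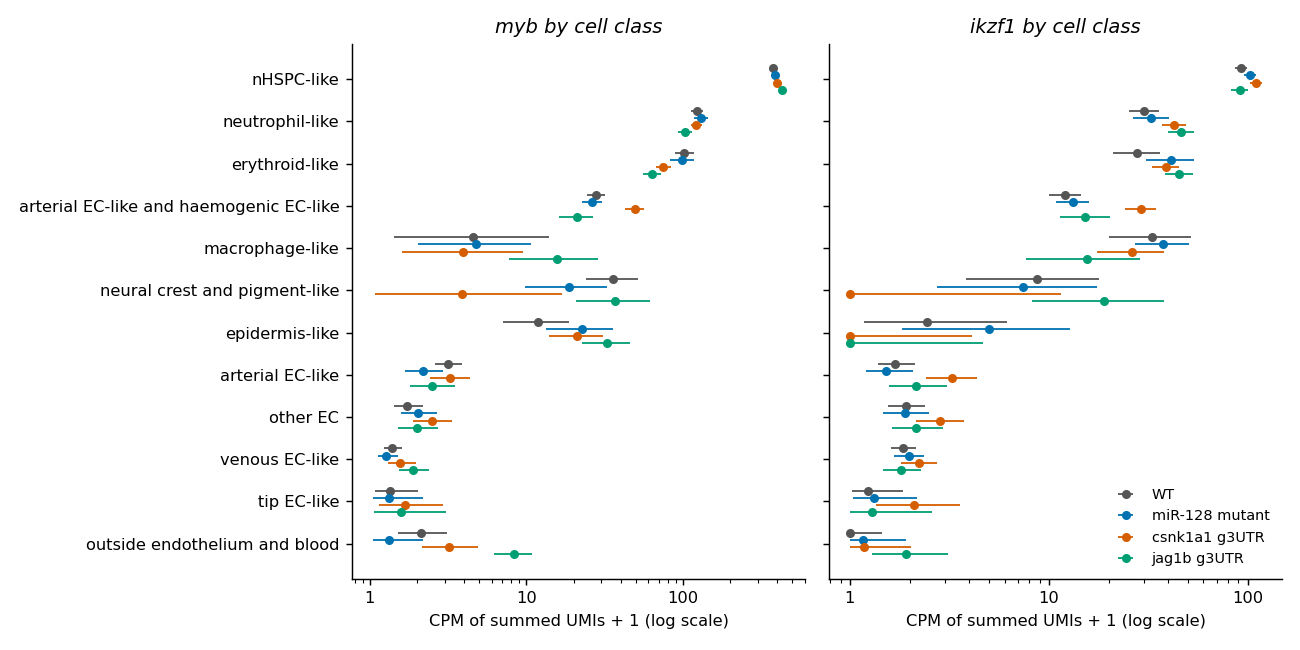
CPM of myb and ikzf1, plus 1 and on a log axis, in each cell class (rows) and library (colours), with 95% Poisson intervals as bars. The nHSPC-like class is the highest for both genes in all 4 libraries, and neutrophil-like and erythroid-like cells follow for myb. Mesenchyme-, muscle-, neural- and notochord-like cells lie near the left edge, except for myb in jag1b g3UTR. There they lie to the right of the venous, tip, other and remaining arterial endothelial classes.

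In a finer clustering (resolution 1.0) the levels of the 2 genes differed in their order over an endothelial cluster and 2 nHSPC-like clusters. No path between clusters was computed. An endothelial cluster led by nanos1, spi2, runx1 and gfi1aa (461, 470, 327 and 315 cells), here called the runx1-led cluster, raised 6 of 8 haemogenic markers and 5 of 12 nHSPC markers and had all 10 pan-endothelial markers at 50 CPM or more. It was left without a type name, because its leading genes held more nHSPC than haemogenic markers. Its myb level was 178, 202, 260.5 and 211 CPM and its ikzf1 level 97.2, 116, 133 and 98.5 CPM. Of 3 arterial clusters that raised no haemogenic marker, the one led by gpm6ab, which raised 6 of 8 arterial markers, had 2.36, 2.05, 4.83 and 0.493 CPM of myb and 1.64, 0.818, 7.25 and 0.985 CPM of ikzf1. In the other 2 the levels ran from 0 to 6.35 CPM of myb and from 0 to 2.86 CPM of ikzf1. Both genes were thus above the level of these arterial clusters in the runx1-led cluster, which had the highest ikzf1 level of the 31 clusters in each of the 4 libraries. An nHSPC-like cluster led by spi2 (201, 150, 241 and 204 cells) had 249.5, 272, 324 and 295 CPM of myb and 73.2, 78, 100.1 and 65.6 CPM of ikzf1. A further nHSPC-like cluster led by si:ch211-214p16.2 (293, 240, 298 and 270 cells) had 374, 440.3, 397 and 467 CPM of myb and 50.4, 57.4, 73.7 and 68.1 CPM of ikzf1. These 2 nHSPC-like clusters together held 57.1, 57.3, 57.4 and 54.4% of all myb UMIs but only 38.9, 34.5, 41.4 and 31.2% of all ikzf1 UMIs. The runx1-led cluster held 18.3, 22.8, 16.1 and 13.8% of the myb UMIs and 37, 44.4, 24.6 and 21% of the ikzf1 UMIs. Of these 3 clusters, myb was lowest in the runx1-led cluster in all 4 libraries and highest in the si:ch211-214p16.2-led cluster. The ikzf1 level ran the other way in WT, the mutant and csnk1a1 g3UTR, and in jag1b g3UTR it was nearly the same in both nHSPC-like clusters. In each of the 3 clusters ikzf1 was higher in csnk1a1 g3UTR than in WT. The nHSPC-like class of the coarser resolution mixed these clusters in unlike parts. Of its cells, 143 of 586 in WT and 126 of 651 in csnk1a1 g3UTR belonged to the runx1-led cluster, and the part of this in the class ratio was not tested. The level of cdh5 was 547, 505, 824 and 1224 CPM in the runx1-led cluster, 492, 331, 410.4 and 835 CPM in the spi2-led cluster and 109.6, 83.7, 117 and 173 CPM in the si:ch211-214p16.2-led cluster.

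The balance of both genes can be given as ikzf1 UMIs per 100 myb UMIs of the same cells, which needs no scaling between libraries. It was 54.5 (48.6 to 61), 57.6 (51.7 to 64), 51 (44.6 to 58.1) and 46.6 (38.8 to 55.8) in the runx1-led cluster, 29.4 (25.4 to 33.9), 28.6 (24.4 to 33.4), 30.9 (27.3 to 35) and 22.3 (18.2 to 27.1) in the spi2-led cluster and 13.5 (11.8 to 15.4), 13 (11.3 to 15), 18.6 (16.1 to 21.3) and 14.6 (12.1 to 17.5) in the si:ch211-214p16.2-led cluster. The intervals of the 3 clusters did not overlap in any library, and the balance was highest in the runx1-led and lowest in the si:ch211-214p16.2-led cluster in each. In the lineage clusters the libraries were further apart. In neutrophil-like cells led by il6r, the interleukin 6 receptor gene, it was 9.3 (7.03 to 12.1), 8.76 (6.26 to 12), 22.7 (18.5 to 27.6) and 26.7 (21.4 to 33), and in those led by the granule gene npsn it was 41.1 (31 to 53.9), 46.6 (33.8 to 63.6), 57.2 (43.7 to 74.5) and 63.4 (47.1 to 84.9). In the larger of 2 erythroid-like clusters (95, 69, 215 and 247 cells) it was 27.7 (19.9 to 38), 40.8 (28.9 to 56.9), 50.7 (41.3 to 62) and 72 (57.5 to 90). The smaller erythroid-like cluster held at most 20 myb UMIs in a library, and over the erythroid-like class of the coarser resolution the balance was 26.7, 41.3, 51.2 and 71.2. Both g3UTR libraries lay above WT in the il6r-led cluster and in the larger erythroid-like cluster, without overlap of their intervals with that of WT, and jag1b g3UTR had the highest point value in each of these 3 clusters. In the il6r-led cluster the jag1b g3UTR cells were also shallow, with a median of 3946 UMIs against 19989 in WT, and held 388 CPM of cdh5, whose part in the result was not tested.

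**Figure D3:**
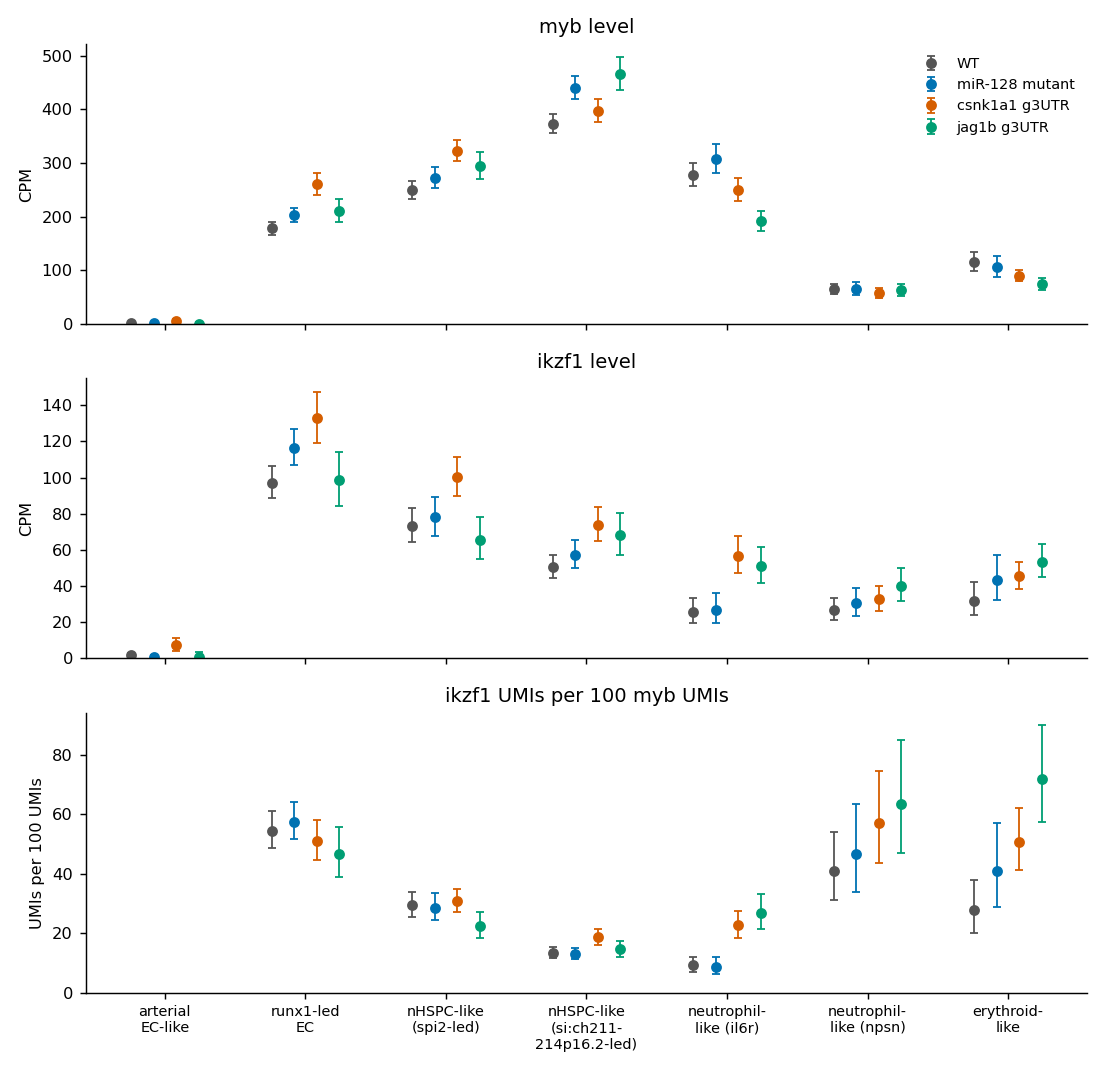
CPM of myb (top panel) and of ikzf1 (middle panel), and ikzf1 UMIs per 100 myb UMIs (bottom panel, only where both genes together had 50 or more UMIs), in 7 of the finer clusters of each library, with 95% counting intervals as bars. The arterial cluster is the one led by gpm6ab and the erythroid-like cluster the larger one. The level of ikzf1 is high in the runx1-led cluster and falls towards the si:ch211-214p16.2-led nHSPC-like cluster, where myb is highest. In jag1b g3UTR ikzf1 is nearly the same in both nHSPC-like clusters.

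Cells positive for each gene were next assigned to the classes they fell in. Of the thinned cells with a myb UMI (446, 421, 553 and 493 cells), 73.3, 76.2, 70.5 and 66.3% were nHSPC-like at the coarser resolution. Of those with an ikzf1 UMI (178, 191, 230 and 202 cells), 71.3, 67.5, 61.3 and 52.5% were. At the finer resolution the runx1-led cluster held 24.4, 30.6, 18.4 and 16.6% of myb-positive and 39.3, 46.1, 31.3 and 21.8% of ikzf1-positive cells, so in every library it held a larger share of the ikzf1-positive cells. A smaller share of the ikzf1-positive cells was nHSPC-like in jag1b g3UTR than in the other libraries, by point values.

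Co-detection with each other and with the gate genes was read in the thinned cells. A cell with a myb UMI also held an ikzf1 UMI in 17.7 (14.3 to 21.6), 20.9 (17.1 to 25.1), 19.2 (16 to 22.7) and 17.2 (14 to 20.9)% of cases, against 0.896, 1.21, 1.59 and 1.34% of myb-negative cells. In the other direction, 44.4 (37 to 52), 46.1 (38.9 to 53.4), 46.1 (39.5 to 52.8) and 42.1 (35.2 to 49.2)% of ikzf1-positive cells held a myb UMI, against 3.24, 3.8, 5.5 and 4.54% of ikzf1-negative cells. These shares differed little between libraries, with intervals that overlapped in all 4. Within the nHSPC-like class, however, myb was as frequent with ikzf1 as without it, to within the counting intervals. There a myb UMI was found in 55.1, 60.5, 60.3 and 64.2% of ikzf1-positive and 57.6, 56.5, 62.9 and 63.3% of ikzf1-negative cells. The class mixes finer clusters with unlike levels of both genes. Inside the runx1-led cluster the myb level was higher in ikzf1-positive cells in all 4 libraries, as given below.

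The endothelial gene cdh5 was found in fewer of the positive cells than of the others. Of myb-positive cells 24.7 (20.7 to 28.9), 25.7 (21.5 to 30.1), 23.7 (20.2 to 27.5) and 27.6 (23.7 to 31.8)% held a cdh5 UMI, against 78.6, 78.9, 78.7 and 86.3% of myb-negative cells, and of ikzf1-positive cells 31.5 (24.7 to 38.8), 42.9 (35.8 to 50.3), 37.4 (31.1 to 44) and 38.6 (31.9 to 45.7)%, against 77.3, 77.1, 76.1 and 84.2% of ikzf1-negative cells. In all libraries but WT the ikzf1 interval lay above that of myb. Inside the nHSPC-like class cdh5 was in 21.3, 38.8, 32.6 and 34% of ikzf1-positive and 23.3, 20, 17.3 and 24.4% of ikzf1-negative cells, and the intervals did not overlap in the mutant (30.3 to 47.7% against 16.3 to 24.1%) and in csnk1a1 g3UTR (25 to 41% against 14.1 to 21%), whereas they did in WT and jag1b g3UTR. For myb the same shares were 22.9, 22.1, 19.2 and 25.4% with and 22.8, 27.3, 23.3 and 28.2% without it, with overlapping intervals in each library.

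The lineage regulators were read in the same way. Of myb-positive cells 21.1 (17.4 to 25.2), 15.4 (12.1 to 19.3), 23.1 (19.7 to 26.9) and 28 (24.1 to 32.2)% held spi1b and 1.35 (0.495 to 2.91), 1.9 (0.824 to 3.71), 4.7 (3.09 to 6.81) and 3.45 (2.02 to 5.46)% held gata1a. Of ikzf1-positive cells 6.74 (3.53 to 11.5), 7.33 (4.07 to 12), 16.5 (12 to 22) and 23.3 (17.6 to 29.7)% held spi1b and 1.12 (0.136 to 4), 2.62 (0.855 to 6), 3.04 (1.23 to 6.17) and 3.96 (1.73 to 7.65)% held gata1a. The share of ikzf1-positive cells with the myeloid factor was higher in both g3UTR libraries than in WT and the mutant. Its ratio to WT was 1.09 (95% interval 0.467 to 2.57) in the mutant, 2.45 (95% interval 1.25 to 5.15) in csnk1a1 g3UTR and 3.45 (95% interval 1.8 to 7.15) in jag1b g3UTR, and 0.71 (95% interval 0.451 to 1.11) in csnk1a1 over jag1b g3UTR. Without thinning the ratios of csnk1a1 and jag1b g3UTR to WT were 1.12 and 1.2. Their size thus rested on the depth at which cells were read. With cells over 20000 UMIs left out, the ratios were 5.55 and 8.05. That limit takes out whole cells, and neutrophil-like cells had a median of 24482, 22484, 14311 and 9999 UMIs. The part of this in the 2 ratios was not tested. Inside the nHSPC-like class the ratios were 2.34 (95% interval 0.783 to 8.39) and 2.88 (95% interval 0.943 to 10.4), with intervals that included 1. Neutrophil-like cells, which express spi1b, made up 1.71, 1.38, 3.34 and 3.55% of the kept cells and thus stood higher in the same libraries, and their part in the result was not tested. For gata1a in myb-positive cells csnk1a1 g3UTR stood 3.49 (95% interval 1.41 to 10.4) times above WT, and jag1b g3UTR 2.56 (95% interval 0.964 to 7.94) times. Of the nHSPC-like myb-positive cells only 0, 1, 5 and 4 cells held gata1a. The level of gata1a over the whole library was also lowest in WT, erythroid-like cells made up 1.32, 0.907, 3.2 and 4.02% of the kept cells, and the part of these in the co-detection was not tested. In nHSPC-like cells spi1b was in 3.94, 4.65, 9.22 and 11.3% of ikzf1-positive and 18.6, 11.9, 18.6 and 23.7% of ikzf1-negative cells, hence in a smaller share with ikzf1 than without it in each library, by point values.

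**Figure D4:**
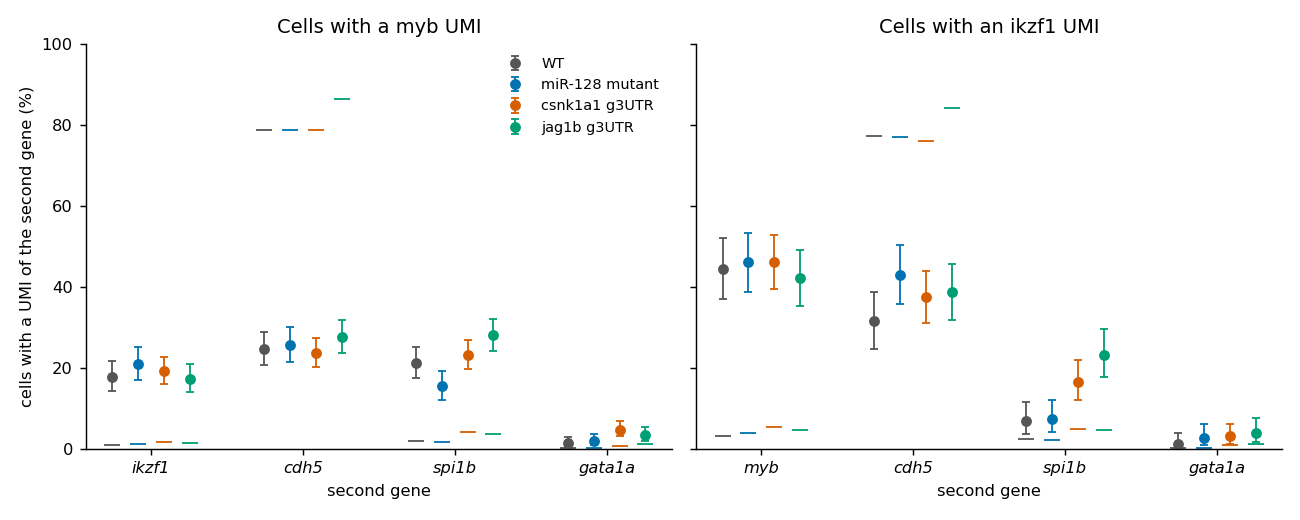
Share (%) of thinned cells positive for myb or for ikzf1 that also held a UMI of the other gene, cdh5, gata1a or spi1b, by library, with 95% Clopper-Pearson intervals as bars, and the share among cells without the first gene as short horizontal dashes. The share with cdh5 lies below its dash for both genes, and the share of ikzf1-positive cells with spi1b is higher in both g3UTR libraries than in WT.

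More than 50% of myb-positive cells held none of cdh5, gata1a and spi1b in WT, the mutant and csnk1a1 g3UTR, and the shares were 55.8, 58, 51.2 and 46.5% at 2500 UMIs a cell. Read from all UMIs, only 234 of 925, 220 of 793, 286 of 1031 and 215 of 895 cells held none and 446 of 925, 379 of 793, 390 of 1031 and 364 of 895 held cdh5, so the size of this group rested on the thinning. Cells with cdh5 alone made up 21.7, 24.7, 21.2 and 22.3%, with spi1b alone 18.4, 14.5, 20.8 and 22.9% and with gata1a alone 1.12, 1.9, 4.16 and 2.84%. In thinned cells 12, 4, 12 and 24 cells held both cdh5 and spi1b, and none held all 3. Their depth before thinning differed from that of other cells. Cells positive for myb had a median of 16719, 15340, 11831 and 8496 UMIs, against 10737, 9618, 7870 and 6235 in cells with neither gene, and Scrublet, a doublet caller, marked 15, 9.74, 12.1 and 12.8% of them, against 10.2, 7.84, 7.28 and 7.51%. With the marked cells left out, no value of the library, class or co-detection comparisons moved beyond its interval.

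The level of ikzf1 in myb-positive cells differed with the other gene they held. It was 111 (96 to 127), 127 (109 to 147), 124 (107 to 142) and 104 (86 to 125) CPM in cells with myb and cdh5, and 88.6 (79.5 to 98.5), 93.8 (84.2 to 104), 111 (99.6 to 122) and 94.5 (81.7 to 109) CPM in cells with myb and none of the 3 genes. In cells with myb and spi1b (94, 65, 128 and 138 cells) it was 27.7 (21.1 to 35.8), 30.2 (21.6 to 41.2), 47.5 (37.9 to 58.8) and 42.4 (32.4 to 54.6) CPM, below the intervals of the cells with cdh5 and of those with none of the 3 in all 4 libraries. Its ratio to WT there was 1.09 (95% interval 0.711 to 1.66) in the mutant, 1.71 (95% interval 1.21 to 2.43) in csnk1a1 g3UTR and 1.53 (95% interval 1.05 to 2.23) in jag1b g3UTR, and csnk1a1 over jag1b g3UTR gave 1.12 (95% interval 0.795 to 1.59). The share of all genes past 1.5 was not taken in these cells. Against WT it was 13.8% in csnk1a1 and 28.2% in jag1b g3UTR among nHSPC-like cells. Among neutrophil-like cells of jag1b g3UTR it was 35.3%. In cells with myb and gata1a, which were only 6, 8, 26 and 17 cells, the ikzf1 level was 48.6 (15.8 to 113), 84.8 (40.6 to 156), 72.8 (47.6 to 107) and 63 (30.2 to 116) CPM, with intervals too wide to order the libraries. The ratio of csnk1a1 g3UTR to WT in those cells was 1.5 (95% interval 0.566 to 5). Read from all UMIs, the same gate held 41, 32, 107 and 101 cells, and the ratio to WT was 1.77 (95% interval 1.06 to 2.97) in the mutant, 1.75 (95% interval 1.16 to 2.73) in csnk1a1 g3UTR and 1.68 (95% interval 1.08 to 2.67) in jag1b g3UTR, with intervals above 1 in each.

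Both genes became rarer as the cdh5 count of a cell rose. With cells outside endothelium and blood left out, myb was found in 15.8, 19, 27.3 and 35.1% of cells without a cdh5 UMI, 2.54, 3.57, 5.94 and 11.9% of cells with 1, 1.07, 1.2, 2.14 and 2.9% with 2 to 3, 0.228, 0.345, 0.892 and 0.836% with 4 to 7 and 0, 0, 0.842 and 0.393% with 8 or more. For ikzf1 the same bins gave 5.8, 6.67, 9.46 and 12.4%, 0.918, 2.09, 2.97 and 8.86%, 0.644, 1.04, 1.61 and 1.7%, 0.41, 0.518, 0.73 and 0.34% and 0, 0, 0.632 and 0.281%. In cells without cdh5 the share of both genes was lowest in WT and highest in jag1b g3UTR, where the cdh5 level of the whole library was also the highest.

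Genes that work beside Myb and Ikaros were then set against the positive cells. Over all kept cells, 6 of 14 progenitor genes (13 with enough UMIs) were at least 1.5 times higher in myb-positive than in myb-negative cells in every library, as were 14.8% of the genes tested, and none was lower, against 28.1% of genes. The ratio was 13.5 to 18.9 for csf1rb, 12.2 to 16.8 for gfi1aa, whose mouse counterpart represses endothelial genes in haemogenic cells, 6.11 to 8.69 for gata2b, 5.94 to 7.18 for runx1, 2.83 to 5.49 for ptprc and 2.15 to 2.42 for tal1. Of 7 coactivators and partners of Myb, 3 were higher, namely cbfb (1.72 to 2.16), the partner of Runx1, and the myeloid factors cebpa (5.72 to 7.18) and cebpb (3.52 to 4.58). Among 11 NuRD subunits chd4a (1.61 to 2.11) and rbbp4 (1.6 to 2.04) were higher and mbd3b (0.396 to 0.546) lower. Of 14 lymphoid genes bcl11aa (6.23 to 10.9), ccr9a (3.42 to 5.38) and tox (1.88 to 2.14) were higher, and 4 had too few UMIs, namely rag1, rag2, il7r and lck. Of the Myb family mybl2a (1.81 to 2.36) was higher, and no other Ikaros family member was. Of these, ikzf5 was tested and neither higher nor lower, ikzf2 and ikzf4 had too few UMIs and ikzf3 was not among the kept genes. For ikzf1-positive cells 7 of 14 progenitor genes were higher, as were 10.3% of genes, and none was lower, against 21.4% of genes. Of the 11 NuRD subunits 0 were higher in these cells and 1 was lower. Of the 14 lymphoid genes 2 were higher, 1 was lower and 4 had too few UMIs. Among the 7 coactivators and partners of Myb 3 were higher.

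Splitting the nHSPC-like class itself by ikzf1 separated its progenitor genes, while splitting it by myb did not. Between nHSPC-like cells with and without an ikzf1 UMI, 4 of 14 progenitor genes were higher in every library, against 1.2% of the genes tested, and 2 were lower, against 0.829% of genes. The level of runx1 was 30.4, 30, 52.7 and 61.3 CPM in the ikzf1-positive and 12.2, 12.7, 26.1 and 37.2 CPM in the ikzf1-negative cells, a ratio of 2.49, 2.37, 2.02 and 1.65. For gfi1aa the ratio was 2.09, 1.93, 2.32 and 2.09, for the homeobox gene meis1b 2.26, 1.88, 2.85 and 1.79 and for tal1, a master regulator of blood specification, 1.51, 1.76, 1.83 and 1.77. All of these are regulators known from haemogenic endothelium or early progenitors. The receptor gene csf1rb was lower in the ikzf1-positive cells, at 51.5, 67.6, 96.9 and 112 CPM against 123, 118, 166 and 199.9 CPM, a ratio of 0.418, 0.574, 0.585 and 0.563, as was the leukocyte gene ptprc, with a ratio of 0.282, 0.553, 0.251 and 0.594. The ratio of myb itself was 1.02, 1.11, 1.11 and 0.973. The median ratio of the 9 progenitor genes with enough UMIs was 1.51, 1.4, 1.83 and 1.65, beside 1.03, 1.02, 1.04 and 0.999 for all genes. With the jag1b g3UTR library left out, 4 were higher and 3 lower, against 2.74% and 1.92% of genes.

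The split by myb gave no progenitor gene in either direction. Of all genes tested, 0.0207% were higher and 0.0414% lower, which were myb itself and napbb on the higher side and fkbp7, klf2a, ndel1b and tfec on the lower side, named after their values were seen. Cells without a thinned myb UMI still held 253, 252, 258 and 216 CPM of myb before thinning, against 464, 489, 482 and 548 CPM in those with one, so the cells counted as negative were not without the transcript. The factor gene klf2a, which responds to blood flow in endothelium, had a ratio of 0.458, 0.458, 0.576 and 0.466.

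The split by ikzf1 was repeated inside finer clusters. In the nHSPC-like clusters of the finer resolution, 1 of 14 progenitor genes (9 with enough UMIs) was higher with ikzf1, against 0.25% of genes, and none was lower, against 2.72%. It was gfi1aa, with ratios of 2.52, 2.05, 2.81 and 2.19, while runx1 had 2.51, 1.33, 1.97 and 0.971, meis1b 1.37, 1.17, 1.89 and 1.26 and tal1 1.36, 1.25, 1.57 and 1.26. In the runx1-led cluster none of the 6 progenitor genes with enough UMIs was higher, against 0.817% of genes, or lower, against 3.74%, while myb was higher in ikzf1-positive cells, with ratios of 2.69, 2.45, 1.86 and 2.02. Of the whole class, 143, 176, 126 and 123 cells belonged to the runx1-led cluster. Its higher calls of runx1, meis1b and tal1 and its lower calls of csf1rb and ptprc were thus not made inside the finer clusters. In the finer nHSPC-like clusters, however, runx1 still passed 1.5 in WT and csnk1a1 g3UTR, and meis1b and tal1 in csnk1a1 g3UTR.

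**Figure D5:**
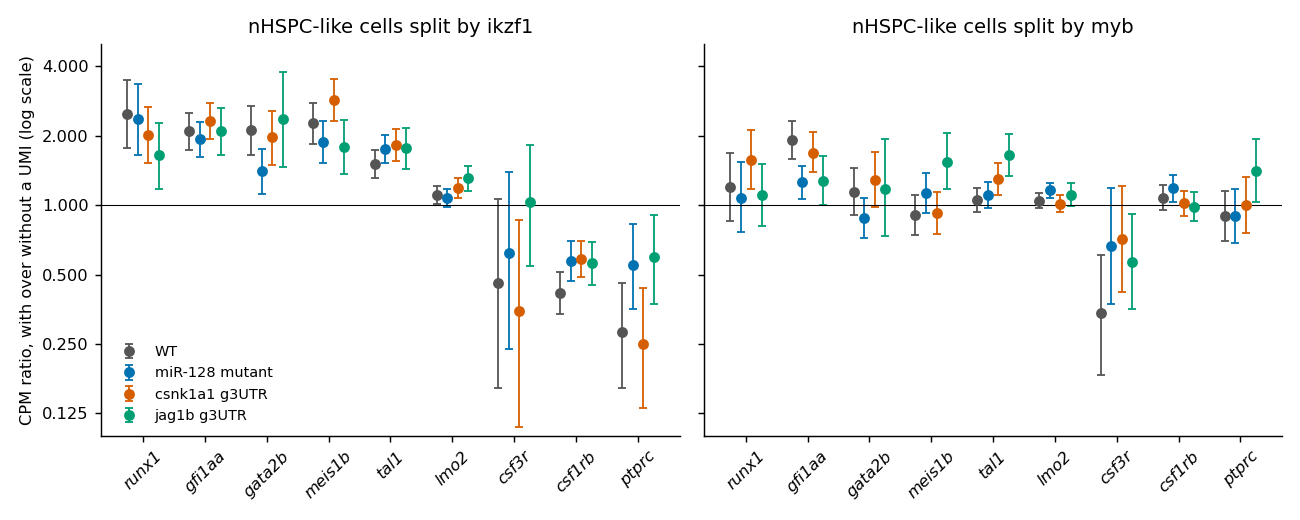
Ratio of CPM (log axis) of each tested progenitor gene between nHSPC-like cells with and without an ikzf1 UMI (left) and with and without a myb UMI (right), 1 point for each library. On the left the points of runx1, gfi1aa, meis1b and tal1 lie above 1.5 and those of csf1rb and ptprc below the lower limit in all 4 libraries, and on the right no gene passes either limit in all 4.

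Cell cycle genes, kept out of the clustering, were summed in the positive cells. The 12 mitosis genes together were at 671 (625 to 720.2), 333 (301 to 368), 829.5 (779.6 to 882) and 926 (859 to 998) CPM in cells with both genes and at 580.3 (562 to 599), 569 (549 to 589.9), 792 (768 to 815) and 922 (891 to 953) CPM in cells with myb alone. In the miR-128 mutant the mitosis interval of cells with both genes (88 cells) lay below that of cells with myb but no ikzf1 UMI. In WT (79 cells) it lay above, while in both g3UTR libraries the intervals overlapped. The 12 replication genes were at 1526 (1455 to 1599), 1267 (1203 to 1333), 1493 (1425 to 1562) and 1400 (1317 to 1487) CPM in cells with both genes. They were at 1296 (1268 to 1324), 1270 (1240 to 1301), 1350 (1319 to 1380) and 1262 (1227 to 1299) CPM in cells with myb but no ikzf1 UMI. They lay higher with both genes, without overlap of the intervals, in WT and both g3UTR libraries, and overlapped in the mutant. These intervals count UMIs and not cells, so they leave out the spread between cells.

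The genes most like each member were sought over 59 profiles, 1 for each class of at least 50 cells in each library, by Pearson's r of log2(CPM + 5) among 16788 genes. For myb they were si:ch211-214p16.2 (0.909), si:ch211-214p16.1 (0.895), ikzf1 (0.885), si:dkey-217f16.1 (0.871) and evi5a (0.867). For ikzf1 they were aprt (0.916), tkfc (0.891), si:dkeyp-120h9.1 (0.885), myb (0.885) and rmdn3 (0.881). The members were thus among each other's nearest genes, and the pair si:ch211-214p16.2 and si:ch211-214p16.1, which also led the nHSPC-like cluster where myb was highest, stood nearest to myb. The profiles of 1 class in 4 libraries are not independent, so these values are a description.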

How the data were processed

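GFP-positive cells of the trunk and tail of 26 hpf embryos were profiled with 10x Genomics 3′ libraries, 1 for each of 4 groups. The authors aligned the reads with Cell Ranger to an annotation with corrected 3′UTRs and deposited raw UMI counts per gene and barcode. Per the file headers, version 5.0.0 was used for WT and the miR-128 mutant and version 6.0.1 for both g3UTR libraries. The genome build is not given in the sources used here, so no coordinates are printed, and no sequences were used. The files pair each gene identifier with its symbol.

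Cells with at least 200 detected genes, at most 35000 UMIs, the study's guard against doublets, and at most 20% mitochondrial counts were kept (41861 cells), with genes found in at least 3 cells (29356 genes). Shares were read after thinning every cell to 2500 UMIs, the 10th percentile rounded down to a multiple of 500. The libraries were integrated and clustered in Seurat 5.3.0 (R 4.3.3; 2000 variable genes, 20 dimensions, resolution 0.5, 22 clusters) without myb, ikzf1, cdh5, gata1a, spi1b, their paralogs and cell cycle genes. A name needed 3 markers raised 2-fold, with 5 CPM added to both levels, and, among the 10 leading genes with a UMI in at least 20% of cells, at least as many markers of that type as of any other. Endothelial clusters without a name were those with 8 of 10 pan-endothelial markers at 50 CPM or more, a limit set after seeing the data, as was the use of resolution 1.0 beyond an alternative. Clusters far below the median depth of their libraries, with no marker of the type among the leading genes, stayed unnamed. Scrublet (scanpy 1.11.5) marked 7.5 to 10.3% of the cells per library and was used only as an alternative.

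Exact 95% intervals (Clopper-Pearson, Poisson, and conditional binomial for ratios of CPM and of shares, scipy 1.17.1) cover counting error only. A gene counted as higher or lower at a CPM ratio of 1.5 in every library compared, among genes with 20 or more UMIs in both sets together. The scripts recovered the changes put into simulated counts. Those changes were larger than 1.5 times and the counts had counting error only, so calls near 1.5 and the spread between cells were not covered. The named genes were myb, ikzf1, cdh5, gata1a and spi1b, the members of the listed pathways, and the 5 genes most like each member, among genes with 200 or more UMIs. The members and lists were chosen with earlier results of these data known. The alternatives were median-of-ratios scaling, the mean of single-cell CPM, no cell filter, a limit of 20000 UMIs, Scrublet, no thinning, thinning to 5000 UMIs, 2 UMIs for a positive cell, resolution 1.0, reading positive cells from all UMIs and leaving out jag1b g3UTR.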

Additional observations from a re-analysis of the deposited data

How the results depend on the processing

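Across 72 values recomputed under 264 alternatives, 216 stayed within the counting interval of the reported value or, for shares of genes, within 1.5 times of it, 44 moved beyond that and 4 turned their direction. Leaving out the cells marked by Scrublet (56 values), lifting the filter on cells (16 values) and reading the ikzf1 level in cells with myb and gata1a or spi1b from all UMIs (8 values) moved none. For cells with myb and gata1a this says little, since the intervals were wide, at 0.566 to 5 for csnk1a1 g3UTR over WT. There the intervals of the ratios to WT lay above 1 only when read from all UMIs. The 4 turned ratios all came from median-of-ratios scaling of the summed UMIs. They were 0.86 for myb and 0.973 for ikzf1 in jag1b g3UTR over WT in all kept cells, and 0.957 for myb in jag1b g3UTR over WT and 1.05 in csnk1a1 over jag1b g3UTR in nHSPC-like cells. The same scaling moved csnk1a1 g3UTR over WT to 1.32 for myb and 1.63 for ikzf1 and csnk1a1 over jag1b g3UTR to 1.53 and 1.68 in all kept cells, and in nHSPC-like cells myb in csnk1a1 g3UTR to 1 and ikzf1 in jag1b g3UTR to 0.823. As the mean of the CPM of single cells, the myb ratios to WT were 1.62 in csnk1a1 and 1.27 in jag1b g3UTR. A limit of 20000 UMIs, which takes more cells from the deeper libraries, gave myb ratios of 1.47, 2.24 and 1.77 to WT in the mutant, csnk1a1 and jag1b g3UTR and 1.26 for csnk1a1 over jag1b g3UTR, and ikzf1 ratios to WT of 1.52, 2.43 and 1.69. It moved the share of myb-positive cells to 2.3 times WT in csnk1a1 and 1.9 in jag1b g3UTR, and ikzf1 in nHSPC-like cells to 1.05 and 0.819. Under it the share of cells with spi1b was 2.08 and 2.56 times WT among myb-positive cells and 5.55 and 8.05 among ikzf1-positive cells. Without thinning, the share of myb-positive cells was 1.49 times WT in csnk1a1 and 1.05 in jag1b g3UTR and 1.42 between them, and that of ikzf1-positive cells 1 times WT in jag1b g3UTR and 1.66 between the g3UTR libraries. The share with cdh5 was then 0.844 times WT for myb in jag1b g3UTR and 0.782 and 0.805 for ikzf1 in csnk1a1 and jag1b g3UTR, and the share of ikzf1-positive cells with spi1b 1.12 and 1.2. At 5000 UMIs a cell the latter were 1.23 and 1.46, and gata1a in myb-positive cells was 0.599 for csnk1a1 over jag1b g3UTR. With 2 UMIs needed, the share of ikzf1-positive cells was 1.07 times WT in jag1b g3UTR. At the clustering resolution of 1.0, nHSPC-like cells had a myb ratio of 1.14 in the mutant and ikzf1 ratios of 1.46 and 1.12 in csnk1a1 and jag1b g3UTR. Leaving out the jag1b g3UTR library, an alternative chosen after seeing the data, put 2.74% of genes higher and 1.92% lower in the split of nHSPC-like cells by ikzf1, and 0.105% and 0.257% in the split by myb. The cause of these moves was not tested. No paired analysis was possible because each group had 1 library, and for the same reason no replicate could be left out. Depth limits ikzf1 most, since most of its positive cells held a single UMI.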

Other observations

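Outside endothelium and blood, myb was also found in epidermis-like and in neural crest and pigment-like cells, which had been kept apart from the background class. Epidermis-like cells (91, 53, 127 and 203 cells) had a myb level of 10.8 CPM (6.04 to 17.8) in the WT library, 21.5 (12.3 to 34.9) in the mutant, 31.8 (21.7 to 44.8) in jag1b g3UTR and 20.2 (12.9 to 30) in csnk1a1 g3UTR, from 15, 16, 32 and 24 UMIs in that order. They held 2, 3, 0 and 0 UMIs of ikzf1 in WT, the mutant, csnk1a1 and jag1b g3UTR. Neural crest and pigment-like cells (56, 48, 33 and 56 cells) had a myb level of 34.8 CPM (22.9 to 50.6) in the WT library, 17.7 (8.85 to 31.7) in the mutant, 35.8 (19.6 to 60.1) in jag1b g3UTR and 2.86 (0.0723 to 15.9) in csnk1a1 g3UTR, from 27, 11, 14 and 1 UMIs in that order. They held 6, 4, 0 and 7 UMIs of ikzf1 in WT, the mutant, csnk1a1 and jag1b g3UTR. In epidermis-like cells the myb interval lay above that of the background class in each library. The background was 1.11 CPM (0.507 to 2.11) in the WT library, 0.33 (0.04 to 1.19) in the mutant, 7.26 (5.19 to 9.89) in jag1b g3UTR and 2.22 (1.15 to 3.87) in csnk1a1 g3UTR. Both classes were small.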
